A study of Homo sapiens with 9 samples.

Results

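The neuronal cytoskeleton genes described here are 10 of the 31589 genes that the deposited tables hold, chosen by name: the neurofilament subunits NEFL, NEFM, NEFH and INA, the tubulins TUBB3 and TUBA1A, and the microtubule-associated DCX, MAP2, MAPT and STMN2. All 10 were in every table and all 10 passed the filter on low counts in every comparison. They were measured by bulk RNA sequencing of whole spinal cord organoids (SCOs), which are three-dimensional cultures grown from human induced pluripotent stem cells towards neural tube and spinal cord. The cells were of the WTC line, labelled WT, and per the study's methods were edited into single-cell clones that carry a SOX10 reporter. The 9 libraries fall into 3 groups of 3, labelled Vehicle (named FGF in the titles, for the growth factor in the medium), VPA (valproic acid, an anti-seizure drug that inhibits histone deacetylases) and VPA+Rapamycin (VPA with an inhibitor of the mTOR kinase). The labels give 96 h of treatment for every library. The study's text gives a shorter time for VPA in its results, and the same length in some supplementary figure legends. For vehicle and VPA, that text describes pools of organoids made clone by clone, with 1 clone in each heatmap column. For VPA+Rapamycin it refers back to the same description. The labels give same-numbered libraries of the 3 groups 1 shared name (C4, C5 or C6) without saying which clone it is. The p-values measure the spread between these libraries, all of 1 cell line.

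Neurofilaments are the intermediate filaments of neurons, and their subunits assemble together to set the calibre of axons. INA and NEFM appear early in neurons, and the heavy subunit NEFH is known as a late, mature one. Microtubules are polymers of alpha- and beta-tubulin, and neurons stabilise and destabilise them with associated proteins. DCX bundles microtubules in young migrating neurons, MAP2 binds those of dendrites, MAPT (tau) binds those of axons, and STMN2 sequesters tubulin in growth cones.

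The start regions of members that fell together under VPA and of a member that was not called are given here, so that their composition can be compared. RefSeq windows of 300 bases (GRCh38.p14) were used for 5 of the 10 members. Each ran from 250 bases before the transcript start to 50 after it, in the direction of the gene. Windows of NEFL, NEFM, NEFH, MAPT and STMN2 were not examined, so the comparison covers only part of the members. Capitals mark short promoter motifs on either strand. The GC box, which Sp1-type factors bind, was searched as GGGCGG. The TATA box, which the basal machinery binds, was searched as TATAAA. The E-box, which proneural helix-loop-helix factors bind, was searched as CAGCTG. The windows are TUBA1A at chr12:49189031-49189330 on the minus strand and DCX at chrX:111412143-111412442 on the minus strand, both of genes lowered by VPA, and INA at chr10:103276888-103277187 on the plus strand.
TUBA1A: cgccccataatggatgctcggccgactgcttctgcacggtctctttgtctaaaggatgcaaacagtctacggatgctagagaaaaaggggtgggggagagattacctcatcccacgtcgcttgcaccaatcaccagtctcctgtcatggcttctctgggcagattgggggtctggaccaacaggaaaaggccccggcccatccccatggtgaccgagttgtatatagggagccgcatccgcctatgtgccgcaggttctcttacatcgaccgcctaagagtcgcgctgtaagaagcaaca
DCX: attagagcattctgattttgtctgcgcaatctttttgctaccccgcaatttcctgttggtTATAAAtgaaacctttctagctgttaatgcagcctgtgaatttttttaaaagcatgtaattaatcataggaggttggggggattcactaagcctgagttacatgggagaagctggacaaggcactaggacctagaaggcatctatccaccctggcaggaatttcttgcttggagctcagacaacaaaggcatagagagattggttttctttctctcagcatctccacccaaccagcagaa
INA: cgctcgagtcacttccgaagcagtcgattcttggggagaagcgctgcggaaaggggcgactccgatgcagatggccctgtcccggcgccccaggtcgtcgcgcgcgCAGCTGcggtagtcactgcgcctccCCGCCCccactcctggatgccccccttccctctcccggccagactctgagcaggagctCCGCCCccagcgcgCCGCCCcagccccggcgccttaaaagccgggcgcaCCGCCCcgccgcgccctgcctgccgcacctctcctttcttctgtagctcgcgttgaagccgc
The 3 windows differ in composition. INA's window is 71.3% G and C with 4 GC boxes and 1 E-box, against a median of 58.7% over all 35116 RefSeq windows. TUBA1A's is 55.7% G and C with none of the motifs searched, and DCX's is 43% with 1 TATAAA. That match lies nearer the upstream end of the window than the transcript start. Only the exact words were searched, without regard to position. Of all windows, 45% hold a GC box, 11.5% a TATA box and 17.9% an E-box. Of the windows not printed, MAP2's held none of these motifs and TUBB3's held 1 AP-1 site (TGACTCA on either strand), a motif present in 4.95% of all windows. RefSeq listed 2 windows for TUBB3 and 3 each for DCX and MAP2. The furthest upstream was used, and the others were not examined. A match is a description of the letters and not a measured binding site.

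Depth was 15290299 to 17189216 counted reads in the vehicle libraries, 16217858 to 17417338 in the VPA libraries and 15609677 to 16795880 in the VPA+Rapamycin libraries. Vehicle replicates 1 and 3 stood furthest apart of any pair within a group, with a chi-square of 39.1 per gene, against 4.75 to 17.9 for the other pairs. The members moved with this difference: on a log2 scale centred per gene, their mean was -0.20 in vehicle replicate 1, 0.09 in vehicle replicate 2 and 0.41 in vehicle replicate 3, and between -0.11 and 0.10 in the 6 treated libraries. The members' counts and fold changes are given without these libraries where that changes a call or moves the value by more than 1.5 times, and the related genes as counts. Summed over 10 neuron markers that encode no cytoskeletal protein (ELAVL2, ELAVL3, ELAVL4, RBFOX3, SNAP25, SYT1, SCG3, UCHL1, NHLH1 and NHLH2), levels in CPM (counts scaled to library size) were 897 to 1452 for vehicle, 810.4 to 896 for VPA and 929 to 955 for VPA+Rapamycin. All 10 markers were above 1 CPM in at least 1 library of every group. In these bulk samples, fewer neurons and less RNA per neuron cannot be told apart.

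Levels per kilobase of exon spanned from 1043 CPM per kb for TUBA1A to 1.51 for NEFH in vehicle. TUBA1A and STMN2 (236 CPM per kb) led in all 3 groups, and neither overlapped its next neighbour in the order. In vehicle, INA (59.3 CPM per kb), NEFL (51.2), MAP2 (41.3), NEFM (39.7) and DCX (30.5) followed, and each overlapped the next over the 3 libraries. MAPT (2.52), TUBB3 (2.00) and NEFH (1.51) came last. The place of NEFH changed. It was the lowest member in vehicle, and in VPA it stood above MAPT and TUBB3, at 4.52 CPM per kb against 3.68 and 1.21, with no overlap between neighbours. In VPA+Rapamycin NEFH (4.17 CPM per kb) and MAPT (3.54) overlapped.

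**Figure D1:**
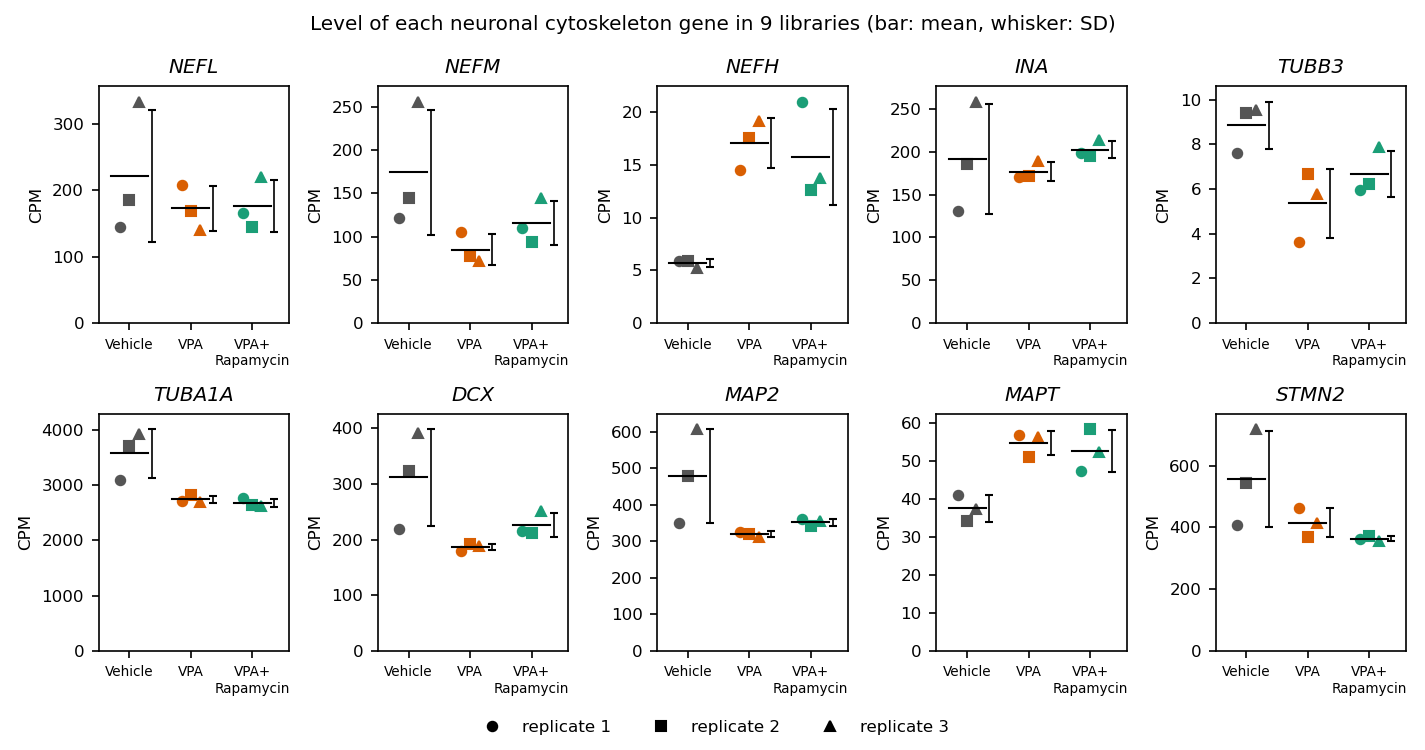
CPM of each of the 10 genes in the 9 libraries, with symbols for the replicate number, the group mean as a bar and the SD as a whisker; every axis starts at 0. NEFH and MAPT were higher in every VPA library than in any vehicle library, and vehicle replicate 3 was the highest library for NEFL, NEFM, INA, TUBB3, TUBA1A, DCX, MAP2 and STMN2.

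VPA moved the members unevenly. Against vehicle, 5 of 10 were lowered (NEFM, TUBB3, TUBA1A, DCX and MAP2) and 2 were raised (NEFH and MAPT), while NEFL, INA and STMN2 passed no threshold. A gene was called where edgeR's quasi-likelihood test gave an adjusted p no higher than 0.05, adjusted over every gene tested, and by this rule 15.7% of the 17360 genes tested were lowered and 16.4% were raised. The members' median log2 fold change was -0.41, with a range of -1.05 to 1.57, against a median of -0.003 over all genes. Without vehicle replicate 3 the count lowered was 4, and without vehicle replicate 1 it was 8. The count raised was 2 in both cases. Over the 3 VPA libraries and vehicle replicate 2 left out in turn, 2 or 3 were lowered.

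**Figure D2:**
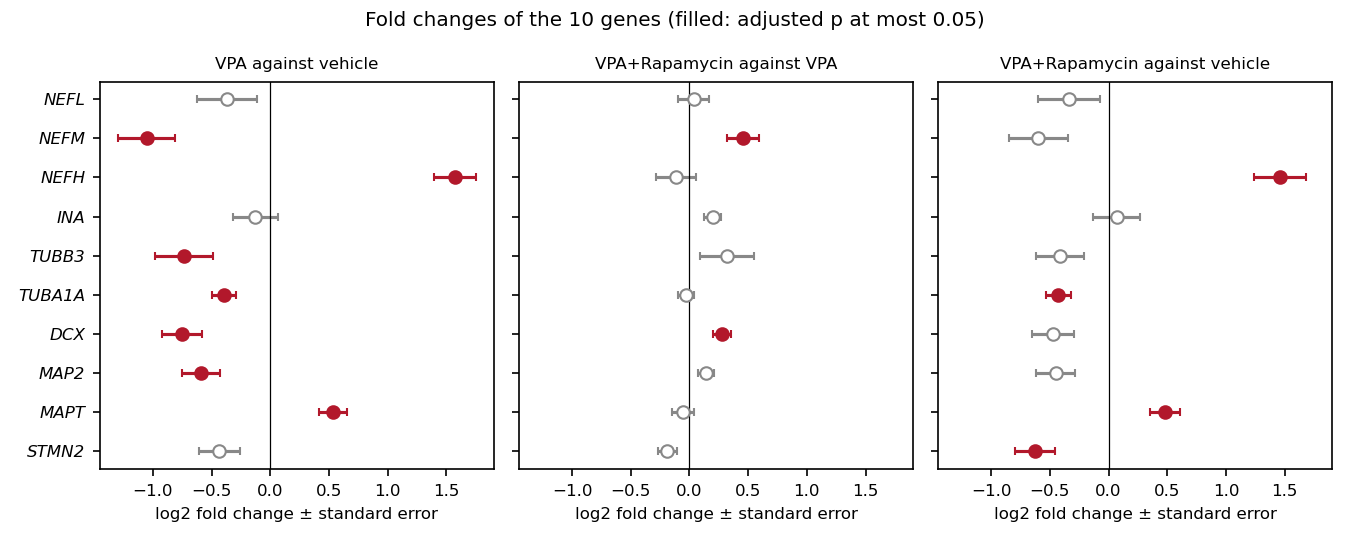
Log2 fold change with its standard error for the 10 genes in the 3 pairwise comparisons, with filled symbols where the adjusted p is at most 0.05. NEFH and MAPT lie to the right of 0 in both comparisons with vehicle, and only NEFM and DCX are filled between VPA+Rapamycin and VPA.

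NEFH, the heavy neurofilament subunit (chr22:29480230-29491390, plus strand, GRCh38), changed the most of the 10. Its level was 5.92, 5.93 and 5.26 CPM in vehicle, 14.5, 17.6 and 19.1 CPM in VPA and 21.0, 12.6 and 13.7 CPM in VPA+Rapamycin. All 6 treated libraries lay above all 3 vehicle libraries, and the treated groups overlapped each other. Under VPA NEFH rose 2.97-fold (log2 1.57 ± 0.18 SE, adjusted p = 0.000143), the gene ranked 249 by p of the 17360 tested. With VPA+Rapamycin it was 2.75-fold above vehicle (log2 1.46 ± 0.22 SE, adjusted p = 0.00201). Its difference between VPA+Rapamycin and VPA was -0.11 ± 0.17 on the log2 scale (adjusted p = 0.758). NEFH is a low gene here, with 85 to 100 counts in the vehicle libraries and 216 to 353 in the treated ones. The call held against vehicle when each library was left out in turn, with log2 fold changes of 1.48 to 1.68 for VPA and 1.20 to 1.60 for VPA+Rapamycin. Of its 3783 exonic bases, 333 are shared with a gene on the opposite strand.

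NEFM, the medium subunit, went the other way under VPA. Its level was 122, 144 and 256 CPM in vehicle, 105, 77.4 and 71.3 CPM in VPA and 109, 94.3 and 144 CPM in VPA+Rapamycin. Every VPA library was below every vehicle library, and the VPA+Rapamycin libraries overlapped both other groups. It fell by 1.05 on the log2 scale under VPA (0.24 SE, adjusted p = 0.00763), by 0.66 without vehicle replicate 3 (adjusted p = 0.000895) and by 1.26 without vehicle replicate 1 (adjusted p = 0.000433). In VPA+Rapamycin it was 1.37-fold above VPA (log2 0.46 ± 0.14 SE, adjusted p = 0.0486). That call was lost without VPA+Rapamycin replicate 3 (log2 0.27, adjusted p = 0.281), without VPA replicate 2 (0.40, adjusted p = 0.204) or VPA replicate 3 (0.35, adjusted p = 0.201), and in DESeq2 (adjusted p = 0.304). Against vehicle, the value in VPA+Rapamycin was -0.60 ± 0.25 (adjusted p = 0.117), -0.21 without vehicle replicate 3 and -0.80 without vehicle replicate 1 (adjusted p = 0.019). It was called with the replicate number as a block (-0.54, adjusted p = 0.00767). Of NEFM's 4381 exonic bases, 1706 are shared with an opposite-strand gene whose mean count was 2.39% of its own.

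NEFL, the light subunit, and INA (alpha-internexin, chr10:103277163-103290351, plus strand) were not called in any comparison. NEFL was at 145, 186 and 334 CPM in vehicle, 208, 169 and 141 CPM in VPA and 166, 144 and 221 CPM in VPA+Rapamycin. INA was at 131, 186 and 259 CPM in vehicle, 170.1, 171 and 189 CPM in VPA and 198, 195 and 214 CPM in VPA+Rapamycin. The vehicle libraries spread the most for both genes, with a coefficient of variation of 44.8% for NEFL and 33.5% for INA, and the vehicle range enclosed every treated library for INA and all but the lowest of each treated group for NEFL. For VPA against vehicle NEFL's log2 value was -0.37 ± 0.25 (adjusted p = 0.288). Without vehicle replicate 3 it was 0.06, and without vehicle replicate 1 it was -0.60 (adjusted p = 0.0312). INA's was -0.13 ± 0.19 (adjusted p = 0.65), with 0.16 and -0.34 (adjusted p = 0.0486) for the same omissions. Between VPA+Rapamycin and VPA, INA's libraries did not overlap, but its log2 value of 0.20 ± 0.07 missed the threshold (adjusted p = 0.123), and NEFL's was 0.04 ± 0.13 (adjusted p = 0.91). Against vehicle, VPA+Rapamycin gave -0.34 ± 0.26 for NEFL (adjusted p = 0.406) and 0.07 ± 0.20 for INA (adjusted p = 0.843), with NEFL at 0.09 and INA at 0.35 without vehicle replicate 3, and at -0.57 and -0.15 without vehicle replicate 1.

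The make-up of the neurofilament pool can be set within each library, where sequencing depth and the number of neurons act on all subunits alike only if the same cells make all of them. Of the summed CPM per kb of the 4 subunits, NEFM held 26.1% ± 1.4 (SD, n = 3) for vehicle, 16.2% ± 2.2 for VPA and 19.6% ± 1.7 for VPA+Rapamycin. NEFH held 1.11% ± 0.44, 3.85% ± 0.78 and 3.14% ± 0.99. Both treated groups were separate from vehicle for NEFM (lower) and for NEFH (higher), each with an exact two-sided permutation p of 0.1, the smallest that 3 libraries against 3 can give. NEFL's share overlapped among all groups, at 33.3% ± 2.0, 33.5% ± 4.3 and 30.2% ± 2.6. INA's share was 39.6% ± 2.9 for vehicle, 46.5% ± 5.5 for VPA and 47.0% ± 3.9 for VPA+Rapamycin, and was apart from vehicle in VPA+Rapamycin (exact p = 0.1) and not in VPA (exact p = 0.2). Between VPA+Rapamycin and VPA the shares of all 4 subunits overlapped (exact p = 0.2 to 0.9). Because the shares of a library add up to the whole, the subunits are not independent results.

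**Figure D3:**
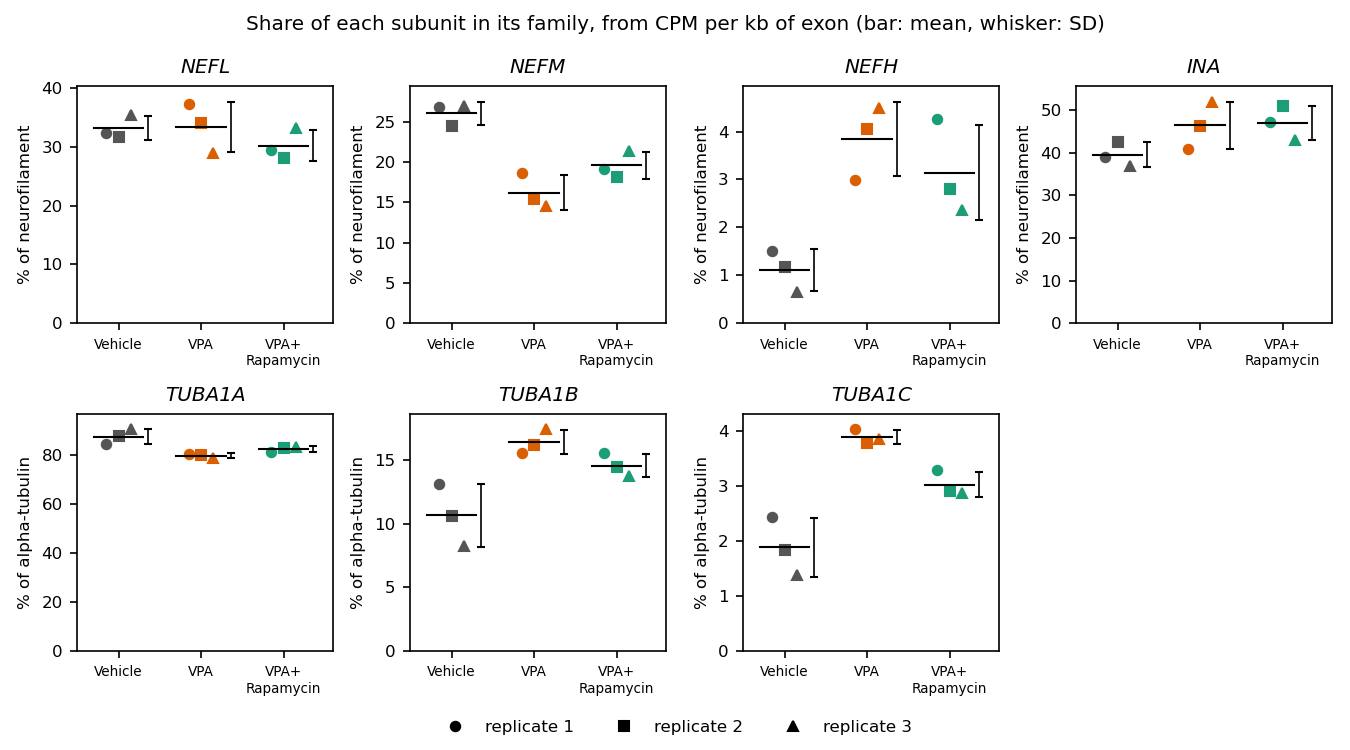
Share of each subunit in its family in every library, as a percentage of the family's summed CPM per kb of exon, for 4 neurofilament subunits and 3 alpha-tubulins, with the mean as a bar and the SD as a whisker. In all 6 treated libraries the NEFM and TUBA1A shares are lower, and the NEFH, TUBA1B and TUBA1C shares higher, than in any vehicle library.

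TUBA1A, the main alpha-tubulin of young neurons (chr12:49184796-49189324, minus strand), was the most abundant member. Its level was 3083, 3699.7 and 3926 CPM in vehicle, 2704, 2812 and 2692 CPM in VPA and 2763, 2644 and 2609 CPM in VPA+Rapamycin. All treated libraries lay below all vehicle libraries, and the treated groups overlapped each other. It fell by 0.39 on the log2 scale under VPA (0.10 SE, adjusted p = 0.0127) and by 0.43 in VPA+Rapamycin against vehicle (0.11 SE, adjusted p = 0.0203). The difference between the treated groups was -0.03 ± 0.07 (adjusted p = 0.844). Both falls were called without vehicle replicate 3 (by 0.31 and 0.35) and without vehicle replicate 1 (by 0.49 and 0.53). Leaving out any 1 VPA library took the VPA call just past the threshold (log2 -0.38 to -0.41, adjusted p = 0.0526 to 0.0584), and leaving out vehicle replicate 2 or any VPA+Rapamycin library did so for VPA+Rapamycin (log2 -0.40 to -0.45, adjusted p = 0.0675 to 0.0905).

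The other alpha-tubulins of the same locus did not follow it. TUBA1A made up 87.5% ± 3.0 (SD, n = 3) of the alpha-tubulin CPM per kb for vehicle, 79.7% ± 0.87 for VPA and 82.4% ± 1.1 for VPA+Rapamycin, while TUBA1B held 10.7% ± 2.5, 16.4% ± 0.93 and 14.6% ± 0.91. TUBA1C held 1.88% ± 0.53, 3.89% ± 0.13 and 3.02% ± 0.23. For all 3 genes each pair of groups was separate (exact two-sided permutation p = 0.1, the smallest possible), with VPA+Rapamycin between the other groups. The shares of a library add up to the whole, so these separations are not independent of one another. How often such shares separate in other families was not examined. These coding sequences are near-identical, and TUBA1A shares 490 of its 3421 exonic bases with TUBA1C on the opposite strand, so reads of 1 gene may be counted on another. The counting of such reads was not given in the sources used here.

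TUBB3, the beta-tubulin used as a marker of neurons (chr16:89921392-89938761, plus strand), was counted at only 7.63, 9.42 and 9.53 CPM in vehicle, 3.64, 6.66 and 5.80 CPM in VPA and 5.95, 6.23 and 7.88 CPM in VPA+Rapamycin. That is 61 to 154 counts per library. The VPA libraries lay below the vehicle libraries, and VPA+Rapamycin overlapped both. TUBB3 fell by 0.73 under VPA (0.25 SE, adjusted p = 0.0416). The call was lost without vehicle replicate 2 (-0.69, adjusted p = 0.119) or replicate 3 (-0.67, adjusted p = 0.0508), and without VPA replicate 1 (-0.51, adjusted p = 0.155) or replicate 3 (-0.79, adjusted p = 0.0878). It was at 0.32 ± 0.23 between VPA+Rapamycin and VPA (adjusted p = 0.463) and at -0.42 ± 0.20 between VPA+Rapamycin and vehicle (adjusted p = 0.18). The gene models overlap here: 1293 of TUBB3's 1350 coding bases, 95.8%, and 89.5% of its principal transcript are also exons of AC092143.1 on the same strand, a gene with 0 to 4 counts per library. How reads from those exons were counted is not given in the sources used here, and the part of the overlap in TUBB3's low level was not tested.

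Of the microtubule-associated members, DCX (doublecortin, chrX:111293779-111412429, minus strand) fell under VPA. It stood at 219.6, 324 and 391 CPM in vehicle, 180.0, 192 and 188 CPM in VPA and 215, 212 and 250.5 CPM in VPA+Rapamycin. VPA lay below both other groups, and VPA+Rapamycin overlapped vehicle. The fall under VPA was 0.75 on the log2 scale (0.17 SE, adjusted p = 0.00698), with -0.55 without vehicle replicate 3 (adjusted p = 0.002) and -0.95 without vehicle replicate 1 (adjusted p = 1.98e-05). VPA+Rapamycin was 1.21-fold above VPA (log2 0.28 ± 0.08 SE, adjusted p = 0.0373). This call was lost without VPA+Rapamycin replicate 3 (0.20, adjusted p = 0.199) and without any 1 VPA library (0.25 to 0.30, adjusted p = 0.0856 to 0.154). Against vehicle VPA+Rapamycin was at -0.47 ± 0.18 (adjusted p = 0.0882), a call made without vehicle replicate 1 (-0.68, adjusted p = 0.00244), by DESeq2 (adjusted p = 0.0366) and with the replicate block (-0.44, adjusted p = 0.0238), and at -0.27 without vehicle replicate 3.

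MAP2, the dendritic microtubule protein (chr2:209424058-209734118, plus strand), followed a similar course. Its level was 349, 478 and 607 CPM in vehicle, 326, 321 and 311 CPM in VPA and 359.7, 341 and 356 CPM in VPA+Rapamycin. The VPA libraries were below all others, with a coefficient of variation of 2.31%, where vehicle had 27.0%. MAP2 fell by 0.59 under VPA (0.16 SE, adjusted p = 0.0177), by 0.38 without vehicle replicate 3 (adjusted p = 0.0119) and by 0.77 without vehicle replicate 1 (adjusted p = 0.00012). The call was lost, at adjusted p = 0.0534 to 0.0735, without vehicle replicate 2 or any 1 VPA library. VPA+Rapamycin against VPA gave 0.14 ± 0.07 (adjusted p = 0.229), and against vehicle -0.45 ± 0.17 (adjusted p = 0.0845), which was called without vehicle replicate 1 (-0.64, adjusted p = 0.0029), by DESeq2 (adjusted p = 0.0369) and with the replicate block (-0.41, adjusted p = 0.0411), and at -0.24 without vehicle replicate 3.

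MAPT, the gene of tau (chr17:45894382-46028334, plus strand), rose. It was at 41.2, 34.2 and 37.4 CPM in vehicle, 57.0, 51.2 and 56.5 CPM in VPA and 47.3, 58.5 and 52.4 CPM in VPA+Rapamycin. All treated libraries lay above all vehicle libraries. The rise was 1.45-fold under VPA (log2 0.53 ± 0.12 SE, adjusted p = 0.00618) and 1.39-fold in VPA+Rapamycin (log2 0.48 ± 0.13 SE, adjusted p = 0.0256). The VPA call held with each library left out (log2 0.47 to 0.61), and the VPA+Rapamycin call was lost without vehicle replicate 2 (0.41, adjusted p = 0.116) or any 1 VPA+Rapamycin library (0.40 to 0.55, adjusted p = 0.0526 to 0.118). Between the treated groups MAPT was at -0.06 ± 0.09 (adjusted p = 0.786).

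STMN2, the growth-cone stathmin, had its lowest levels with Rapamycin. It stood at 407, 545 and 718 CPM in vehicle, 464, 367 and 415 CPM in VPA and 364, 372 and 355 CPM in VPA+Rapamycin. The VPA libraries overlapped both other groups, and every VPA+Rapamycin library was below every vehicle library. Against vehicle STMN2 fell by 0.62 in VPA+Rapamycin (0.17 SE, adjusted p = 0.0274), a value of -0.39 without vehicle replicate 3 (adjusted p = 0.026). The call was lost without vehicle replicate 2 or any 1 VPA+Rapamycin library (-0.60 to -0.64, adjusted p = 0.0707 to 0.1). VPA alone gave -0.43 ± 0.18 (adjusted p = 0.0801), called by DESeq2 (adjusted p = 0.0405) and without vehicle replicate 1 (-0.61, adjusted p = 0.00203) but at -0.20 without vehicle replicate 3 (adjusted p = 0.194). Between the treated groups the value was -0.19 ± 0.08 (adjusted p = 0.178).

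Rapamycin added to VPA moved few members past the threshold. Of 10 members, NEFM and DCX were raised in VPA+Rapamycin against VPA, where 3.01% of 17317 genes tested were raised and 3.73% lowered. By edgeR 0 members were lowered. At an unadjusted p under 0.05 edgeR gave 1 with an estimate below 0, STMN2, and DESeq2 also lowered 0. The members' median was 0.09 on the log2 scale, with a range of -0.19 to 0.46. Fitting all 9 libraries together left 0 members raised and 0 lowered. Against vehicle, VPA+Rapamycin raised 2 members (NEFH and MAPT) and lowered 2 (TUBA1A and STMN2), where 9.81% of 17383 genes were raised and 9.22% lowered, and the median was -0.42. With the replicate number as a block 5 members were lowered, adding NEFM, DCX and MAP2. The number lowered was 5 without vehicle replicate 1 and 0 without vehicle replicate 2 or any 1 VPA+Rapamycin library. The 3 comparisons share their libraries in pairs, so their values are set side by side and are not independent.

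Most neuron markers moved in the same direction as most members, though not all by a like amount. Of the 10 neuron markers, VPA against vehicle lowered 5 (ELAVL2, ELAVL3, ELAVL4, NHLH1 and NHLH2) and raised 1 (UCHL1), where 15.7% of all genes were lowered and 16.4% raised. Their median log2 fold change was -0.49, close to the members' -0.41, with 8 estimates below 0 and 2 above. Mean CPM went from 103 to 39.5 for NHLH1, 154 to 50.8 for NHLH2 and 210 to 92.6 for ELAVL4. It went from 184 to 169 for SYT1, 53.4 to 57.4 for SNAP25 and 131 to 208 for UCHL1. VPA+Rapamycin against VPA raised 3 (NHLH2, ELAVL4 and ELAVL2), with a median of 0.16, where 3.01% of all genes were raised. Each member was therefore also set against the mean log2 level of these markers in the same library. On that scale the differences between VPA and vehicle were 2.08 for NEFH, 1.06 for MAPT and 0.45 for INA, and for these 3 the groups did not overlap (exact two-sided permutation p = 0.1 each, the smallest possible). Such separation was common, at 56.8% of all genes in this comparison, so the count of 3 of 10 lies below the background. The count was 3 without vehicle replicate 3 and 5 without vehicle replicate 1. The members lowered against all genes overlapped between the groups on this scale, with -0.47 for NEFM (exact p = 0.3), -0.24 for TUBB3 (0.5), -0.19 for DCX (0.3), -0.03 for MAP2 (0.7) and 0.14 for TUBA1A (0.3). NEFL was at 0.23 (exact p = 0.6) and STMN2 at 0.12 (exact p = 0.6). A marker mean without NHLH1, NHLH2 and ELAVL4 was not tested.

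Set against the neuron markers, 3 members were separate between VPA+Rapamycin and VPA, where 35.9% of all genes were separate. All 3 were lower with Rapamycin, with STMN2 at -0.39, MAPT at -0.27 and TUBA1A at -0.24 (exact p = 0.1 each). The marker mean was higher in every VPA+Rapamycin library (10.05 to 10.15) than in any VPA library (9.81 to 9.99). It is subtracted from every gene, which lowers every member on this scale by construction. With all genes as the reference, these members were at -0.19, -0.06 and -0.03, and none was called. The members called raised between VPA+Rapamycin and VPA, NEFM (0.25, exact p = 0.5) and DCX (0.07, exact p = 0.6), overlapped relative to the markers. Between VPA+Rapamycin and vehicle 4 were separate, with NEFH at 1.73, MAPT at 0.79, INA at 0.44 and STMN2 at -0.27 (exact p = 0.1 each), against 40.0% of all genes. The count was 5 without vehicle replicate 3 and 6 without vehicle replicate 1. The share of the members' changes that goes with the number of neurons was not tested.

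**Figure D4:**
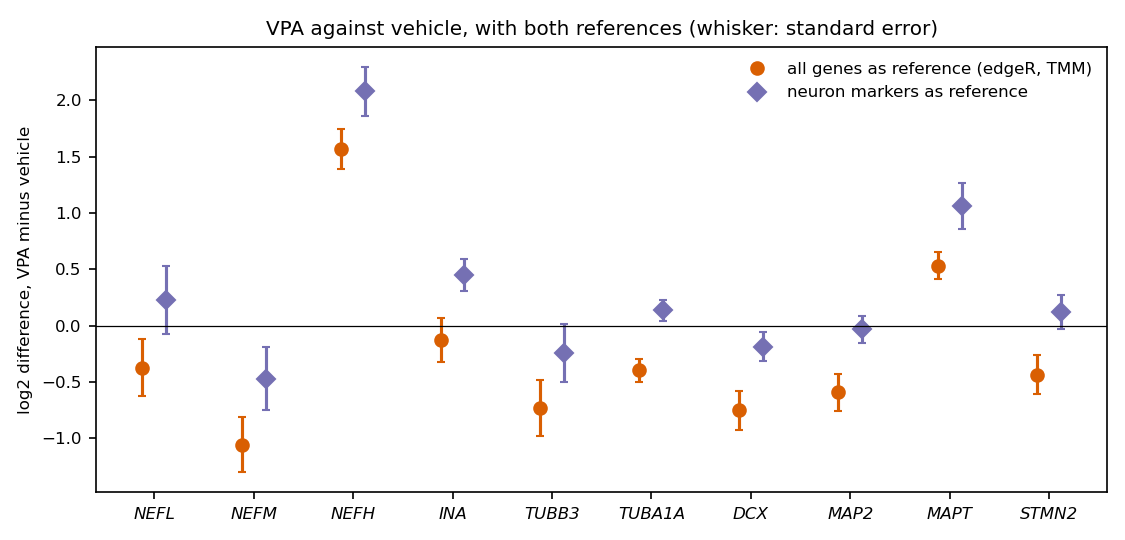
Log2 difference between VPA and vehicle for the 10 genes, with all genes as the reference (circles) and with the mean of 10 neuron markers as the reference (diamonds); whiskers are standard errors. NEFH and MAPT are above 0 with both references. All 10 genes lie higher with the neuron markers as the reference, by construction. The same marker mean, which was lower in the VPA libraries, is subtracted from every gene.

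Markers of other cells also differed between the groups. Summed over 6 neural progenitor markers the level was 1682 to 1981 CPM for vehicle, 2194 to 2347 for VPA and 1887 to 2086 for VPA+Rapamycin. Of the 6, HES5 was the 1 raised under VPA, from a mean of 316 to 616 CPM, most of the difference, and FABP7 was at -0.21 (adjusted p = 0.314). The sum of 10 mesenchymal markers was 157 to 327 CPM for vehicle, 586 to 743 for VPA and 264 to 389 for VPA+Rapamycin. COL1A1 (mean 125 to 270.2 CPM) and COL1A2 (72.8 to 319.5 CPM) made up most of that difference and were the 2 raised of 9 tested, with a list median of 0.06 and 3 estimates below 0. The sum of 5 HOX genes of spinal cord position was 205 to 324, 131 to 141 and 159.8 to 199 CPM. Neural crest (6 markers, 388 to 473 CPM over all groups) and proliferating cells (4 markers, 1452 to 1860.2 CPM) overlapped between VPA and vehicle in their sums, although the crest factor SOX10 fell by 5.15 on the log2 scale under VPA (adjusted p = 2.52e-06). Pluripotency markers summed to 84.8 to 245 CPM, nearly all from LIN28A, with POU5F1 and NANOG under 1 CPM in every library. Glial markers (4 genes) summed to 5.15 to 9.10 CPM. Endothelial and blood markers reached at most 1.45 CPM in sum, and PTPRC was not analysed here. The part of these cells in the members' changes was not tested.

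Beyond the members, 97 other cytoskeleton genes in 8 lists were examined, of which 96 were tested. Under VPA 19 were raised (19.8%) and 16 lowered (16.7%), with a median log2 fold change of -0.08, near the shares over all genes. The counts were 22 and 19 without vehicle replicate 3, and 20 and 30 without vehicle replicate 1. VPA+Rapamycin against VPA raised 4 (4.17%) and lowered 5 (5.21%), with a median of -0.05, where 3.01% of all genes were raised and 3.73% lowered. Against vehicle it raised 10 and lowered 10 (10.4% each, median -0.08), where 9.81% of all genes were raised and 9.22% lowered. These too are near the shares over all genes.

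Of 9 other tubulins tested, 5 rose under VPA (55.6%, against 16.4% of all genes), in the direction opposite to TUBA1A. TUBA1C (0.81 ± 0.13 SE, adjusted p = 0.00113) and TUBB4B (0.56 ± 0.13 SE, adjusted p = 0.00763), tubulins made in many cell types, rose, as did TUBA1B, TUBB6 and TUBA4A. All but TUBA4A had their lowest level in vehicle replicate 3, with TUBB6 at 84.3, 74.8 and 51.4 CPM over the vehicle libraries. For each of the 5, every VPA library still lay above every vehicle library. TUBB2A, a neuronal beta-tubulin with a near-identical copy in TUBB2B, fell (-0.44 ± 0.11 SE, adjusted p = 0.0108), while TUBB2B was at -0.39 ± 0.17 (adjusted p = 0.0946). With Rapamycin, TUBA1C (-0.44, adjusted p = 0.00341) and TUBB6 (-0.36, adjusted p = 0.0108) fell against VPA. Against vehicle TUBB2A was the tubulin called (-0.53, adjusted p = 0.0117).

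Of the 96 related genes tested, the stathmin STMN4 had the largest log2 change under VPA. It was at 52.8, 50.1 and 73.5 CPM in vehicle, 18.5, 16.2 and 20.6 CPM in VPA and 21.6, 27.0 and 26.6 CPM in VPA+Rapamycin, and the 3 groups did not overlap. It fell by 1.68 under VPA (0.17 SE, adjusted p = 6.86e-05), rose by 0.44 in VPA+Rapamycin against VPA (0.13 SE, adjusted p = 0.0406) and was below vehicle in VPA+Rapamycin (log2 -1.24, adjusted p = 0.0011). STMN3 rose under VPA (0.31, adjusted p = 0.0337). Of the family's CPM per kb, STMN2 held 56.4% ± 4.0 (SD, n = 3) for vehicle, 53.0% ± 3.3 for VPA and 48.2% ± 0.64 for VPA+Rapamycin, the last separate from both others (exact p = 0.1). STMN1, the stathmin of dividing cells, held 30.2% ± 2.3, 31.5% ± 2.3 and 36.1% ± 1.4.

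Of 5 other intermediate filament genes, SYNM (synemin) rose under VPA (1.20 ± 0.22 SE, adjusted p = 0.00241) and in VPA+Rapamycin against vehicle (1.09, adjusted p = 0.00736), and VIM (vimentin, of progenitors and mesenchymal cells) fell under VPA (-0.40 ± 0.09 SE, adjusted p = 0.00786). The peripheral neurofilament-type gene PRPH was at -0.55 ± 0.24 (adjusted p = 0.101). Of 22 microtubule-binding genes, 3 were raised (13.6%, against 16.4% of all genes) and 5 lowered (22.7%, against 15.7%) under VPA. MAP7D2 rose (1.32 ± 0.22 SE, adjusted p = 0.00134), and the plus-end proteins CLASP2 (-0.74, adjusted p = 0.00432) and CLASP1 (-0.47, adjusted p = 0.00453) fell. In VPA+Rapamycin against VPA, MAP7D2 fell (-0.71, adjusted p = 0.0216) and CLASP2 rose (0.29, adjusted p = 0.0381). Against vehicle MAP7 (-0.90, adjusted p = 0.00515), CAMSAP3 (0.79, adjusted p = 0.0126) and MAP4 (-0.40, adjusted p = 0.017) had the smallest p.

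Of 15 axonal motor genes, 2 rose (13.3%, against 16.4% of all genes) and 3 fell (20%, against 15.7%) under VPA. The kinesin light chain KLC1 fell (-0.56 ± 0.11 SE, adjusted p = 0.00267), KIF1A, which carries synaptic vesicle precursors, rose (0.46 ± 0.10 SE, adjusted p = 0.00606), and KIF3C fell (-0.44, adjusted p = 0.0126). In VPA+Rapamycin against vehicle KIF1A was at 0.41 (adjusted p = 0.0214), KLC1 at -0.41 (adjusted p = 0.025) and KIF5C at -0.44 (adjusted p = 0.0444). Of 13 growth cone genes, MARCKS was the gene called under VPA (-0.59 ± 0.12 SE, adjusted p = 0.00412), and it rose by 0.24 with Rapamycin added (adjusted p = 0.0411). GAP43, a growth cone protein of extending axons, fell by 0.60 in VPA+Rapamycin against VPA (0.11 SE, adjusted p = 0.00219) and was at -0.73 ± 0.24 against vehicle (adjusted p = 0.0551).

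Of 10 membrane skeleton genes, EPB41L3 (1.06 ± 0.19 SE, adjusted p = 0.00216) and SPTBN4, a spectrin of the axon initial segment (0.84 ± 0.29 SE, adjusted p = 0.0474), rose under VPA and SPTAN1 fell (-0.52, adjusted p = 0.00313). The 3 genes with the smallest p against vehicle in VPA+Rapamycin were EPB41L3 (0.87, adjusted p = 0.0182), SPTAN1 (-0.39, adjusted p = 0.0224) and ADD3 (-0.35, adjusted p = 0.0373). Of 19 tubulin folding, severing and modifying genes, 5 rose (26.3%, against 16.4% of all genes) and 3 fell (15.8%, against 15.7%) under VPA. The tubulin deacetylase HDAC6 fell (-0.55 ± 0.12 SE, adjusted p = 0.00577) and the folding cofactor TBCB rose (0.47, adjusted p = 0.00617). In VPA+Rapamycin against VPA the cofactor TBCD fell (-0.34, adjusted p = 0.00896) and the severing enzyme SPAST rose (0.30, adjusted p = 0.0412). Against vehicle TBCB (0.46, adjusted p = 0.0158) and TTLL11 (0.81, adjusted p = 0.0258) rose.

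**Figure D5:**
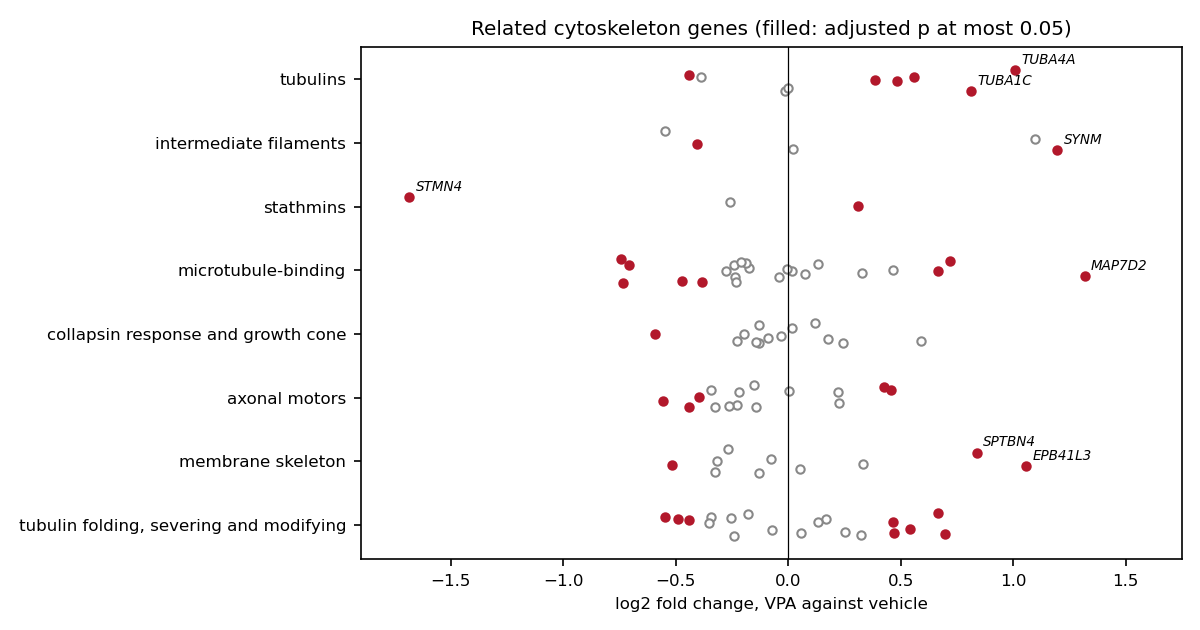
Log2 fold change of each tested related cytoskeleton gene for VPA against vehicle, 1 row of points per list, filled where the adjusted p is at most 0.05, with vertical scatter for legibility and names for called genes beyond 0.8. Most lists spread to both sides of 0, the tubulins hold 5 filled points above 0 and 1 below, and STMN4 lies furthest to the left at -1.68.

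The members do not share a single pattern over the 9 libraries. By root mean square distance from the members' mean centred log2 level, INA was nearest to it (0.138), followed by TUBA1A (0.155) and MAP2 (0.166), and NEFH was furthest (0.829). Of 16724 genes compared, the 5 others nearest to that mean were VEZT (0.0347), EXOC5 (0.0392), UBE2J1 (0.0409), AAK1 (0.042) and FRYL (0.0442), by the same measure on the log2 scale. VEZT, for example, averaged 151 CPM for vehicle, 126 for VPA and 137 for VPA+Rapamycin. This likeness is a description over 9 libraries, in which vehicle replicates 1 and 3 mark the ends of the range.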

How the data were processed

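Poly-A RNA of whole SCOs was sequenced in 9 libraries, 3 per group. The authors deposited counts of reads per gene without normalization, in 1 table for each of the 3 pairs of groups. Per the labels, the authors' processing named HISAT2 2.0.5 and featureCounts 1.5.0-p3, and the settings for strand and for reads shared between genes are not given in the sources used here. Coordinates are GRCh38, and 31584 of 31589 genes have the span and exon length of GENCODE release 29. A further 36 columns of normalized values per sample, 6 of group means and the authors' own fold changes and p-values were not used. Depth was 15290299 to 17417338 counts per library, which limits precision for members with few counts (NEFH and TUBB3).

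Each table was tested on its own with edgeR 4.0.16 (R 4.3.3): TMM normalization, filterByExpr at its defaults, the quasi-likelihood test, and Benjamini-Hochberg adjustment over all genes tested, at 0.05. Standard errors are of the log2 fold change. CPM used TMM factors over the 9 libraries, and levels per kb used the deposited exon lengths. Levels against the neuron markers used a prior count of 1 and exact two-sided permutation tests. Methods were tested on simulated data. The alternatives were DESeq2 1.42.0, RLE normalization, a single fit of all 9 libraries, no filter, a minimum of 10 counts per library, the replicate number as a block, a minimum log2 fold change of 1 in either direction, a prior count of 5, summed neuron markers, and leaving out each library. Groups follow the labels. Same-numbered libraries share a name in the labels and may share a clone, which is not stated in the sources used here. The main fit has no block. The correlation of their deviations from the group means over 16734 genes was 0.05, 0.05 and -0.06 between vehicle and VPA. It was 0.09, -0.03 and 0.02 between the 2 treated groups, and 0.09, 0.07 and 0.19 between vehicle and VPA+Rapamycin. Blocked values are given where they change a call.

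The members, the gene lists and the tests were chosen with earlier results of these data known. All 10 members are named. Of each related list, up to 3 called genes with the smallest p per comparison are named, as are the 5 genes nearest to the members' mean profile. TUBA1B, TUBB6, TUBA4A, TUBB2B, STMN1, PRPH and, against vehicle, GAP43 were named outside this rule after their values were seen. A gene that this rule names is not reported here. TBCE was left out because 2 gene IDs carry that symbol. Promoter sequences are from RefSeq.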

Additional observations from a re-analysis of the deposited data

How the results depend on the processing

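Of 360 recomputed member fold changes, 299 kept their direction and their side of the threshold, 33 kept the direction and lost the call, 20 kept the direction and gained it, and 8 changed sign, all 8 in members not called. NEFM, NEFH, DCX and MAPT under VPA, and NEFH in VPA+Rapamycin against vehicle, kept their calls in all 12 alternatives that refit the data. The minimum fold change, which refits nothing, removed DCX and MAPT. The sign changes came from leaving out 1 library. Over such omissions the log2 value ran from -0.60 to 0.058 for NEFL and from -0.34 to 0.16 for INA under VPA, from -0.15 to 0.19 for NEFL (-0.09 without VPA replicate 3), from -0.38 to 0.027 for NEFH and from -0.14 to 0.016 for MAPT in VPA+Rapamycin against VPA, and from -0.57 to 0.091 for NEFL and from -0.15 to 0.35 for INA in VPA+Rapamycin against vehicle.

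Counts of calls moved more. With a minimum log2 fold change of 1 in either direction, VPA against vehicle kept 1 member raised and 1 lowered and 4 related genes raised and 1 lowered. VPA+Rapamycin against VPA then kept 0 members raised and 0 related genes in either direction, and against vehicle 1 member raised and 0 lowered, with 1 related gene raised and 1 lowered. DESeq2 gave 1 member raised and 9 related genes lowered against VPA, and 4 members and 17 related genes lowered for VPA+Rapamycin against vehicle. Without the filter, 10 related genes were lowered against VPA, and 5 members and 16 related genes against vehicle. All 9 libraries in 1 fit gave 0 members raised and 0 related genes raised or lowered against VPA, and 4 members and 22 related genes lowered against vehicle. The cause of these shifts was not tested.

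Leaving out each library, VPA lowered 2 to 8 members, with 9 to 22 related genes raised and 9 to 30 lowered. VPA+Rapamycin against VPA raised 0 to 2 members, with 0 to 5 related genes raised and 2 to 9 lowered. VPA+Rapamycin against vehicle raised 1 to 2 members and lowered 0 to 5, with 1 to 14 related genes raised and 2 to 26 lowered. The highest counts lowered against vehicle came without vehicle replicate 1. Members separate relative to the neuron markers numbered 3 to 5 under VPA.

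With the replicate block, VPA+Rapamycin against vehicle lowered 5 members and not 2, and no other member changed its call. Low counts limit NEFH and TUBB3 among the members. Of the related genes named, TUBA4A, SPTBN4, SYNM, PRPH, TTLL11 and MAP7D2 also had few counts. They ran from 22 (TUBA4A) to 238 (MAP7D2) per library.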
